A study of Mus musculus with 18 samples.

Results

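The cell cycle genes described here are 42 genes in 3 classes. Of these, 19 serve entry into and passage through DNA replication, 20 serve mitosis and 3 encode inhibitors of cyclin-dependent kinases. A member was looked up by its symbol in the platform annotation, among probe sets that carry that symbol alone, and was read from the probe set with the highest mean log2 intensity over all arrays. By this rule 41 of the 42 genes were found among the 12393 genes of the array. Ccnb1, which encodes cyclin B1, has no probe set under its symbol alone and was not analysed here, so mitosis was measured by 19 genes. The list of genes was set by function, but with earlier results of these data known. The choice of probe set used the measured level, which decides the direction reported for Top2a and Foxm1.

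The samples were kidneys of C57BL/6 mice. They were WT, TIMP2-/- or TIMP3-/-, the null mice lacking a tissue inhibitor of metalloproteinases, a class of proteins that restrains matrix-cleaving proteases. Each mouse had either a double ligation of the right ureter, called unilateral ureteral obstruction (UUO), or the same operation without the ligation (sham). The operated kidney was taken 3 days later, frozen, and hybridised to a Mouse430A_2 GeneChip. Each of the 6 groups has 3 arrays, described as biological replicates, which makes 18 arrays. The groups are WT sham, TIMP2-/- sham, TIMP3-/- sham, WT UUO, TIMP2-/- UUO and TIMP3-/- UUO. The age and sex of the mice, the construct behind each null allele and any pooling of animals are not given in the sources used here.

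A cell that leaves rest makes D and E cyclins, which with their kinases free E2F factors from the retinoblastoma proteins and switch on the genes of DNA replication. Later in the cycle the B-MYB and MuvB complex and FOXM1 switch on the mitotic genes, through promoters that often hold a cell cycle homology region (CHR) and CCAAT boxes. The healthy adult kidney divides little, while its tubular cells re-enter the cycle after injury, alongside dividing interstitial cells, and Cdkn1a (p21), a target of p53, is known to rise in injured tubules.

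Promoters were read from RefSeq (GRCm38.p6) because the members rose together in the comparisons below. Of the 41 measured members 33 matched a promoter, which runs from 250 bases before the start site to 50 after it. Aurkb, Ccna2, Ccnd1, Ccnd2, Ccne2, Foxm1, Kif20a and Mcm4 were not matched. Letters were searched on both strands. The CHR was searched as TTTGAA or TTCGAA, the CCAAT box as CCAAT, and the E2F site as TTTCCCGC, TTTGGCGC, TTTCGCGC or TTTGCCGC. TTCGAA reads the same on both strands, and the E2F forms TTTGGCGC and TTTCGCGC can overlap on opposite strands.

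CHR and CCAAT letters together were in 12 of the 15 mitosis genes matched, in 3 of the 15 replication genes and in none of the 3 inhibitors. Of the 32851 promoters of the same length 7.52% held both. A gene was counted if any of its promoters held the letters, and the 33 genes had 37 promoters. The shares of all promoters are per single promoter. The E2F letters were in 6 replication genes (Cdc6, Cdt1, Mcm3, Mcm5, Mcm6 and Mcm7), in 1 mitosis gene (Cdk1) and in none of the 3 inhibitors, against 2.26% of all promoters. The p53 decamer, named here without its letters, was in 1 inhibitor gene (Cdkn1a), 2 mitosis genes (Birc5 and Bub1b) and 2 replication genes (Tk1 and Tyms), against 8.36% of all promoters. These are matches of letters, not sites of binding, and an absence says only that the letters are not in the window. The last 190 bases before the start site are printed, 5′ to 3′ on the gene's strand, for 3 mitosis genes with a CHR and CCAAT match, for Mcm6 as a replication gene with E2F letters, and for the Cdkn1a start site whose stretch holds p53 decamers. Capitals mark the CHR, CCAAT and E2F letters on either strand in the first 4 and p53 decamers alone in Cdkn1a. The stretches are chr10:69352913-69353102 (minus strand) for Cdk1, chr4:118437344-118437533 (minus strand) for Cdc20, chr9:70421555-70421744 (minus strand) for Ccnb2, chr1:128359706-128359895 (minus strand) for Mcm6 and chr17:29090789-29090978 (plus strand) for Cdkn1a.
Cdk1: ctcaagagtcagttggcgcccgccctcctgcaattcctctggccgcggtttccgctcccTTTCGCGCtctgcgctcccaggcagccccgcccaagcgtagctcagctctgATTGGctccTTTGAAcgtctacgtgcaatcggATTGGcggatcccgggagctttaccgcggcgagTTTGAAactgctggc
Cdc20: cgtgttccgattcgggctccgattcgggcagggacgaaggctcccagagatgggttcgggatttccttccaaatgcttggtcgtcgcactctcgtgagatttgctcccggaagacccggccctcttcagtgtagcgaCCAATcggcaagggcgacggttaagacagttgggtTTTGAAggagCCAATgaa
Ccnb2: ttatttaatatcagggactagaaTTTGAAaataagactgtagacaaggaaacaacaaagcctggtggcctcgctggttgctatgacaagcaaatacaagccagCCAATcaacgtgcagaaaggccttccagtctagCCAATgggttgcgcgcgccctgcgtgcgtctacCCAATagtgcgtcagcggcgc
Mcm6: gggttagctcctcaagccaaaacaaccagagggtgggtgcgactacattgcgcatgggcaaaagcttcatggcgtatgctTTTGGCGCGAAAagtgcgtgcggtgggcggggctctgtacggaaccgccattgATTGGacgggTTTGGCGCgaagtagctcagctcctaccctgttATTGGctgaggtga
Cdkn1a: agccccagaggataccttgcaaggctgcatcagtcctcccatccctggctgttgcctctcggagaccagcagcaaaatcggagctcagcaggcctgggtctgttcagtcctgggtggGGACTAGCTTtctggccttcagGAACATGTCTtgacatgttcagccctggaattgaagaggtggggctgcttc
In Cdk1 the CHR letters began 71 and 15 bases before the start site and the E2F letters 131 bases before it. This gene alone of the 15 mitosis genes matched to a promoter held both kinds. In Mcm6 the E2F letters lay 110, 106 and 47 bases before the start, the first pair overlapping.

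Before the cell cycle genes, the arrays were checked as a set. Array medians lay between 201 and 247 intensity units, and the 25th percentile of an array, used here as the mark of a dim gene, between 56.8 and 64.2. Timp3 read 35.1 to 60.8 on the TIMP3-/- arrays against 3171 to 9040 on the others. Timp2 kept a signal of 570.8 to 897.1 on the TIMP2-/- arrays, against 970.6 to 5304 elsewhere, and where its probes lie relative to the deleted part was not checked. Umod, the thick limb marker uromodulin, was between 13310 and 25850 on every array. Replicates correlated at 0.955 to 0.997 across genes. WT UUO 2 carried liver transcripts, with albumin (Alb) at 28110 where WT UUO 1 and 3 had 72.7 and 254, and a summed level of 16 hepatocyte markers of 157400 against at most 50010 on every other array. Together with TIMP3-/- UUO 2 and WT sham 3 it is treated here as an array that stands apart, a choice made with earlier results of these data known, and counts are given with and without these 3.

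Obstruction against sham asks how far the operated kidney had entered the cycle by day 3. In WT kidneys 30 of the 41 members rose and 1 fell (adjusted p under 0.05), where 16.8% of all genes rose and 16.2% fell. In TIMP2-/- kidneys 30 rose and 2 fell, against 15.9% and 22% of all genes. In TIMP3-/- kidneys 33 rose and 2 fell, against 25.7% and 38.8% of all genes. The median log2 change of the members was 1.01, 1.04 and 1.43 in WT, TIMP2-/- and TIMP3-/-, while the median over all genes was -0.09, -0.12 and -0.19. Every obstructed array was above every sham array for 33, 32 and 32 members, against 21.6%, 23% and 23.8% of all genes. Every obstructed array was below every sham array for 1, 3 and 2 members, against 26.7%, 33.2% and 39.5%. In either direction 33%, 37.9% and 64.6% of all genes passed in WT, TIMP2-/- and TIMP3-/-. Without the 3 arrays that stand apart the counts were 23 higher and 1 lower in WT, 32 and 2 in TIMP2-/-, and 36 and 2 in TIMP3-/-. The share of all genes called in that setting is not given here.

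The classes had different medians, a difference described here without a test. The median log2 change of the 19 mitosis genes was 1.55 in WT, 1.49 in TIMP2-/- and 1.94 in TIMP3-/-. The 19 replication genes had medians of 0.93, 0.83 and 0.95, and the 3 inhibitors 0.52, 0.50 and 0.75. In WT 15 of 19 mitosis genes and 13 of 19 replication genes rose, in TIMP2-/- 16 and 11, and in TIMP3-/- 18 and 12. Averaged over the class and set against the mean of the 9 sham arrays, mitosis genes were 1.13, 1.95 and 1.01 log2 units higher on the WT UUO arrays, 1.68, 1.55 and 1.26 on the TIMP2-/- UUO arrays, and 2.33, 1.84 and 1.60 on the TIMP3-/- UUO arrays. Every obstructed array was thus above every sham array, of which TIMP2-/- sham 3 was the highest at 0.32. For replication genes the same averages were 0.73, 1.03 and 0.57, then 0.81, 0.82 and 0.74, then 1.16, 0.68 and 0.97.

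**Figure D1:**
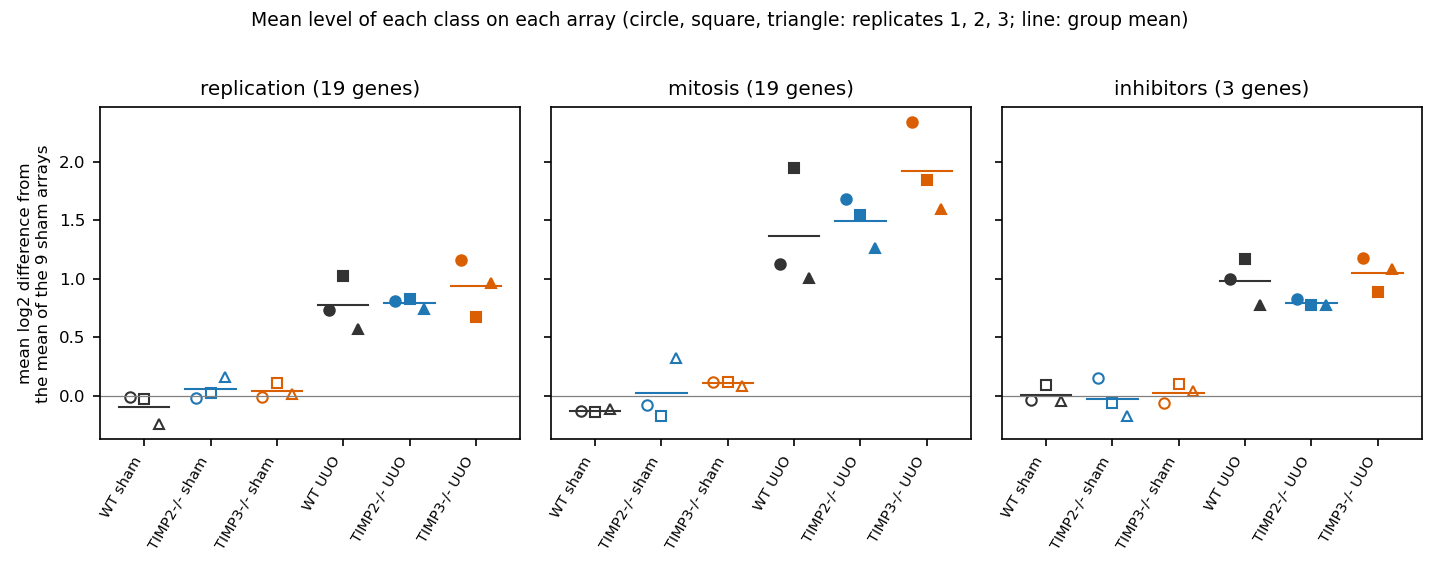
Mean log2 difference of each class from the mean of the 9 sham arrays (y axis) for each array, by group (x axis), with replicates 1, 2 and 3 as circle, square and triangle and the group mean as a line. Mitosis genes reach 1.01 to 2.33 on the obstructed arrays and replication genes 0.57 to 1.16, while the sham arrays lie between -0.24 and 0.32.

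Cells other than tubules can add cell cycle RNA to a whole kidney, and in bulk tissue more dividing cells and more RNA per cell cannot be told apart. Of 18 macrophage and monocyte markers 18, 17 and 18 rose in WT, TIMP2-/- and TIMP3-/-, with summed levels of 8875 to 12020, 12620 to 15010 and 12690 to 16560 on sham arrays against 55990 to 96230, 66320 to 69360 and 86990 to 115000 after UUO. Of 13 fibroblast and myofibroblast markers 13, 12 and 13 rose, with sums of 9763 to 12680, 9637 to 13140 and 13850 to 16300 on sham arrays against 73620 to 146300, 64770 to 78350 and 96310 to 189800. All 9 injured tubule markers rose in each genotype, with sums of 11280 to 17750 on the 9 sham arrays against 61540 to 82770 on the 9 obstructed arrays. Of 8 kidney tubule markers 6, 6 and 7 fell, with sums of 83860 to 98140 on sham arrays against 23070 to 59620. Lymphocyte and NK markers were less uniform, with 5, 4 and 3 of 13 higher and 2, 2 and 4 lower. Endothelial markers rose for 5, 0 and 4 of 10 and fell for 1, 2 and 1. Podocyte markers rose for 1, 1 and 1 of 4 and fell for 0, 1 and 1. Adipocyte markers rose for 4, 1 and 4 of 5 and none fell. Hepatocyte markers rose for 4, 3 and 1 of 16 and fell for 2, 2 and 5. Of all genes 16.8%, 15.9% and 25.7% rose and 16.2%, 22% and 38.8% fell. No listed marker read 0. The part of these cells in the rise of the cell cycle genes was not tested.

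Of the 5 genes that open the cycle, 1 rose in WT, 1 in TIMP2-/- and 2 in TIMP3-/-, where 1 also fell. Ccnd2 encodes cyclin D2, a partner of CDK4 and CDK6. Its intensity was 361, 438 and 471 on the WT sham arrays against 949, 1714 and 646 after UUO, 363, 486 and 468 against 698, 774 and 862 in TIMP2-/-, and 485, 476 and 459 against 1989, 1379 and 1327 in TIMP3-/-. The arrays did not overlap in any genotype, and it rose by 1.27 ± 0.26 (log2, SE of the fit) in WT (adjusted p = 0.00182), 0.83 ± 0.26 in TIMP2-/- (0.0233) and 1.70 ± 0.26 in TIMP3-/- (8.44e-05). The TIMP2-/- call was lost without TIMP2-/- sham 1, TIMP2-/- UUO 2 or TIMP2-/- UUO 3 (adjusted p from 0.0545 to 0.0823). Ccnd1, which encodes cyclin D1, went the other way. It read 2589, 2611 and 2321 on WT sham against 2578, 1900 and 2932 on WT UUO arrays, 2817, 3051 and 3354 against 2263, 2374 and 2614 in TIMP2-/-, and 3087, 2786 and 3270 against 1638, 1364 and 2325 in TIMP3-/-. The groups overlapped in WT and were separate in both null genotypes, and the fall passed in TIMP3-/- at -0.81 ± 0.18 (adjusted p = 0.00152), beside -0.35 ± 0.18 (0.141) in TIMP2-/- and -0.04 ± 0.18 (0.874) in WT. In TIMP2-/- the fall passed in 2 other settings (adjusted p from 0.0019 to 0.0233). Of the 3 Ccnd1 probe sets 0 passed in WT, 1 passed as lower in TIMP2-/- and 3 in TIMP3-/-.

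Ccne1 and Ccne2 encode the E cyclins, which activate CDK2, and E2f1 an activating E2F factor. Ccne1 was at 0.09 to 0.12 in the 3 genotypes and E2f1 at 0.26, -0.32 and -0.05, and none passed, though E2f1 in TIMP2-/- did so in 4 other settings, among them without TIMP2-/- UUO 3. The 95% interval of Ccne1 reached from -0.29 to 0.51 in WT, so changes within that range remain possible. Ccne2 rose in TIMP3-/- by 1.37 ± 0.37 (adjusted p = 0.00532), and was 0.93 ± 0.37 (0.0673) in WT and 0.41 ± 0.37 (0.385) in TIMP2-/-, but its mean lay below 56.8 in every group. The WT value passed in 4 other settings, among them without WT UUO 3. Ccne2, Tyms and Kif11 are the 3 members that were dim in this sense throughout.

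Transcripts of the genes of licensing, the loading of the MCM helicase onto replication origins, rose broadly. Of the 8 licensing genes (Cdc6, Cdt1 and Mcm2 to Mcm7) 8 rose in WT, 6 in TIMP2-/- and 6 in TIMP3-/-, and none fell. Mcm5 read 74.5, 74.6 and 54.9 on WT sham arrays against 233, 309 and 224 after UUO, 67.8, 81.9 and 118 against 314, 277 and 282 in TIMP2-/-, and 82.5, 104 and 105 against 340, 170 and 306 in TIMP3-/-. It was the licensing gene with the largest change in WT and TIMP2-/-, by 1.91 ± 0.25 (adjusted p = 3.93e-05) and 1.74 ± 0.25 (0.000125), and rose by 1.43 ± 0.25 (0.000219) in TIMP3-/-. Mcm4 had the largest change in TIMP3-/-, where it read 187, 131 and 132 on sham arrays against 605, 695 and 547. Its log2 changes were 0.96 ± 0.25 in WT, 1.28 ± 0.25 in TIMP2-/- and 2.05 ± 0.25 in TIMP3-/- (adjusted p = 0.00774, 0.00150 and 9.74e-06). The WT call of Mcm4 was lost in 2 settings (adjusted p from 0.0533 to 0.0931), among them without the 3 arrays that stand apart. Cdc6, which recruits the helicase, rose by 1.85, 1.49 and 1.56, though from a dim level of 20.0 to 42.3 on the sham arrays.

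Mcm6 rose by 0.98, 1.11 and 1.28, Mcm7 by 0.91, 0.87 and 0.83, and Mcm3 by 1.02, 0.74 and 0.76. In TIMP2-/- the Mcm3 adjusted p was 0.0473, and 0.0617 with the replicate as a block, and the call was lost in 9 settings, among them without each TIMP2-/- UUO array and without TIMP2-/- sham 1 or 2. The Mcm3 rise in TIMP3-/- was 1.14 without TIMP3-/- UUO 2 and 0.50 (adjusted p = 0.142) without TIMP3-/- UUO 1, and its call was lost in 7 settings, also without TIMP3-/- UUO 3 or TIMP3-/- sham 1. Mcm2 passed in WT (0.73 ± 0.20, adjusted p = 0.0126) and was 0.36 ± 0.20 and 0.33 ± 0.20 in the null genotypes. The WT call was lost in 4 settings, among them without WT sham 3 or WT UUO 1, while Mcm2 passed in 5 other settings in TIMP2-/- and in 3 in TIMP3-/-, in the latter also without TIMP3-/- UUO 2. Cdt1, the second loading factor, passed in WT at 0.61 ± 0.22 (0.0433), a call lost in 12 settings, among them without each of the 3 WT UUO arrays. It was 0.31 (adjusted p = 0.217) without WT sham 3, the lowest of its WT sham arrays at 455 against 819 and 868. Cdc45, which completes the active helicase, was 0.34, 0.25 and 0.20 and did not pass, except in TIMP3-/- in 3 other settings, among them without TIMP3-/- UUO 2. The differences of these responses between genotypes are given with the genotype comparisons.

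Of the 4 genes of nucleotide supply 3 rose in each genotype, as did the clamp gene of the fork. Pcna, the sliding clamp of DNA polymerase, read 2536, 1437 and 2160 on WT sham arrays against 4413, 4490 and 2285 after UUO, which overlap. It was 1284, 1137 and 782 against 3005, 3448 and 2398 in TIMP2-/-, and 1829, 1173 and 1315 against 3945, 4782 and 3929 in TIMP3-/-, with no overlap in either. The log2 change was 0.84 ± 0.28 in WT (adjusted p = 0.0315), 1.48 ± 0.28 in TIMP2-/- (0.00129) and 1.57 ± 0.28 in TIMP3-/- (0.000276), and the WT call was lost without WT UUO 1, WT UUO 2, WT sham 2 or WT sham 3.

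Ribonucleotide reductase makes the deoxynucleotides for replication, and its small subunit Rrm2 is made in S phase. Rrm2 read 152, 160 and 153 on WT sham arrays against 458, 713 and 401 after UUO, 132, 117 and 182 against 748, 707 and 494 in TIMP2-/-, and 211, 168 and 150 against 983, 718 and 778 in TIMP3-/-. All 3 of its probe sets rose in every genotype, the brightest by 1.71 ± 0.23 in WT (adjusted p = 4.92e-05), 2.18 ± 0.23 in TIMP2-/- (7.93e-06) and 2.23 ± 0.23 in TIMP3-/- (2.88e-06). The large subunit Rrm1 rose by 0.96, 0.97 and 1.35, and Tk1, thymidine kinase of the salvage route, by 1.19, 1.01 and 0.95. The WT call of Rrm1 was lost without the 3 arrays that stand apart (0.59, adjusted p = 0.0746), and 1 of its 2 probe sets passed in WT. Tyms, thymidylate synthase, is not settled by these arrays. Its 3 own probe sets read 14.0 to 31.7 throughout, and the one used fell in TIMP2-/- by 0.51 ± 0.13 (adjusted p = 0.00845), a call lost without TIMP2-/- UUO 1. A probe set shared with a Tyms pseudogene read 434 to 731 on the 18 arrays, with changes of 0.09, 0.04 and -0.14 that did not pass.

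The mitotic kinase and its cyclins A2 and B2 rose in every genotype, all 3 of them. Cdk1, the kinase that drives entry into mitosis, read 125, 109 and 154 on WT sham arrays against 552, 1033 and 498 after UUO. In TIMP2-/- it read 110, 163 and 129 against 621, 674 and 629, and in TIMP3-/- 137, 172 and 141 against 1209, 627 and 864. Sham and obstructed arrays were far apart, and the log2 change was 2.36 ± 0.26 in WT (adjusted p = 9.39e-06), 2.28 ± 0.26 in TIMP2-/- (1.93e-05) and 2.54 ± 0.26 in TIMP3-/- (3.12e-06). Ccnb2, cyclin B2, rose by 2.51, 2.53 and 2.43, and Ccna2, cyclin A2, by 1.75, 1.68 and 2.14, also with no overlap in any genotype.

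The kinases of the spindle and the chromosomal passenger complex rose too. Birc5 encodes survivin, which holds Aurora B at the centromere. It read 40.6, 38.8 and 44.8 on WT sham arrays against 308, 661 and 253 after UUO, 39.3, 38.1 and 73.9 against 453, 452 and 395 in TIMP2-/-, and 70.3, 67.4 and 54.1 against 853, 399 and 467 in TIMP3-/-. Its log2 change of 3.17 ± 0.34 in WT (adjusted p = 5.85e-06), 3.17 ± 0.34 in TIMP2-/- (9.07e-06) and 3.09 ± 0.34 in TIMP3-/- (4.49e-06) was the largest of the 41 members in WT and TIMP2-/-. Aurkb, Aurora B itself, rose by 2.19, 2.28 and 2.30. Aurka, which acts at the spindle poles, rose by 1.68, 1.49 and 1.60, and Plk1, a kinase of mitotic entry and exit, by 1.48, 0.98 and 1.31. The TIMP2-/- call of Plk1 was lost without TIMP2-/- UUO 1 (adjusted p = 0.0519).

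Of the 4 genes of the spindle checkpoint and its target, Cdc20, the activator of the anaphase-promoting complex, rose most, by 2.28, 1.72 and 1.94. Mad2l1, which holds Cdc20 in check, rose by 0.87, 1.04 and 1.36, and Bub1b by 0.63, 0.88 and 0.77. The WT call of Bub1b (adjusted p = 0.0415) was lost in 10 settings, among them without each of the 3 WT sham arrays, and it was 0.39 (adjusted p = 0.216) without WT UUO 2. Bub1, the checkpoint kinase, was dim and passed in TIMP3-/- (1.79 ± 0.43, adjusted p = 0.00256), beside 1.01 ± 0.43 (0.0860, and under 0.05 without WT UUO 3) in WT and 0.46 ± 0.43 (0.410) in TIMP2-/-. Among spindle and cytokinesis genes Prc1, a bundler of midzone microtubules, rose by 1.23, 1.10 and 1.49, and the kinesin gene Kif20a by 1.12, 1.12 and 1.43, a WT call that was lost without WT UUO 2. The kinesin gene Kif11 rose in TIMP3-/- by 1.11 ± 0.31 (adjusted p = 0.00662), beside 0.10 and 0.31 in WT and TIMP2-/-. Another of its 3 probe sets changed by 0.65, 0.78 and 1.71 in WT, TIMP2-/- and TIMP3-/-, and passed in both null genotypes. The last was at -0.16, -0.20 and 0.10 and did not pass, so the genotypes in which Kif11 rose depend on the probe set.

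Nusap1, which binds spindle microtubules, was uneven between arrays of a group. It read 98.5, 60.4 and 109 on WT sham arrays against 102, 166 and 96.5 after UUO, 66.7, 63.9 and 68.2 against 246, 201 and 118 in TIMP2-/-, and 98.4, 51.7 and 50.4 against 232, 443 and 147 in TIMP3-/-. It overlapped in WT (0.45 ± 0.38, adjusted p = 0.386) and rose in TIMP2-/- by 1.44 ± 0.38 (0.0100) and in TIMP3-/- by 1.96 ± 0.38 (0.000576). The TIMP2-/- call was lost without TIMP2-/- UUO 1 (adjusted p = 0.0551).

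**Figure D2:**
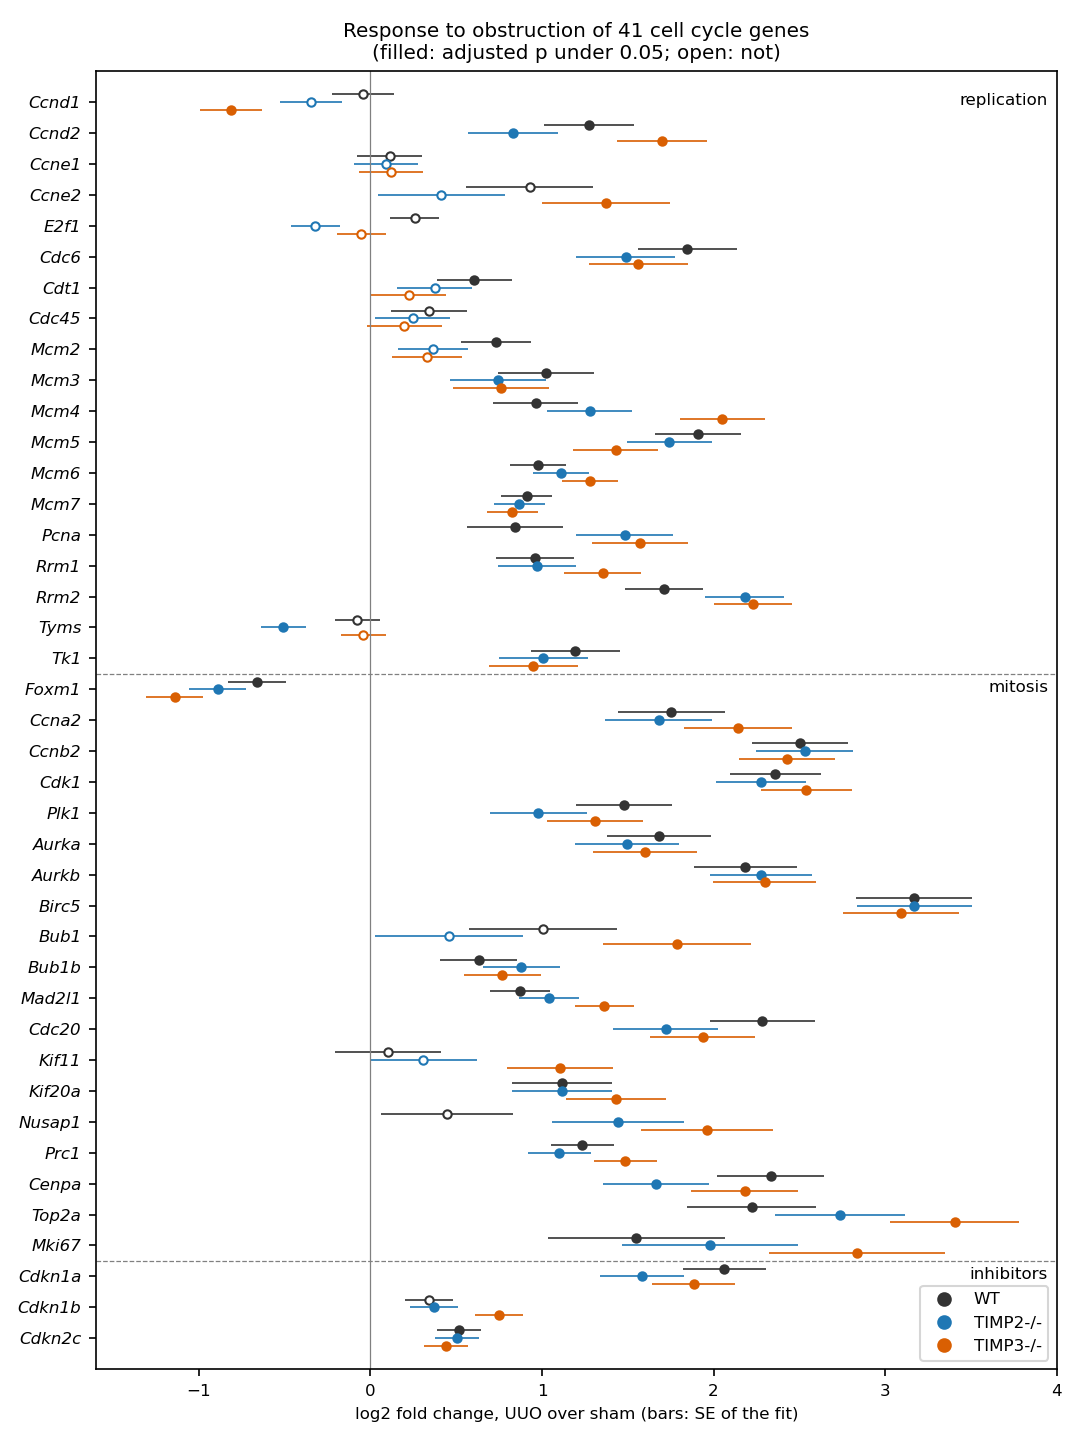
Log2 fold change of UUO over sham (x axis, bars are the SE of the fit) for the 41 measured members (y axis), in WT, TIMP2-/- and TIMP3-/-, filled where the adjusted p was under 0.05 and open where not. Birc5 lies at 3.17, 3.17 and 3.09, the replication and mitosis genes overlap over much of the range, and Foxm1 lies at -0.66, -0.89 and -1.14.

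Chromosome proteins included the largest single change. Top2a, the topoisomerase that untangles sister chromatids, read 43.4, 48.7 and 75.8 on WT sham arrays against 209, 503 and 155 after UUO. In TIMP2-/- it read 51.6, 37.2 and 57.7 against 395, 356 and 233, and in TIMP3-/- 73.9, 48.5 and 73.7 against 945, 667 and 498. The log2 change was 2.22 ± 0.38 in WT (adjusted p = 0.000394), 2.74 ± 0.38 in TIMP2-/- (9.71e-05) and 3.40 ± 0.38 in TIMP3-/- (5.17e-06), a 10.6-fold rise in the last. Cenpa, the centromeric histone, rose by 2.33, 1.66 and 2.18.

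Mki67 encodes Ki-67, the common marker of cycling cells. It read 41.3, 52.1 and 57.1 on WT sham arrays against 105, 277 and 107 after UUO, 44.5, 55.7 and 49.7 against 261, 251 and 116 in TIMP2-/-, and 49.7, 52.8 and 48.6 against 402, 856 and 135 in TIMP3-/-. The sham arrays of all genotypes were alike and dim, and the obstructed arrays were separate from them but spread over a wide range. The log2 change was 1.55 ± 0.51 in WT (adjusted p = 0.0304), 1.98 ± 0.51 in TIMP2-/- (0.00865) and 2.84 ± 0.51 in TIMP3-/- (0.000306). The WT call was lost without WT UUO 2 and without each of the 3 WT sham arrays.

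**Figure D3:**
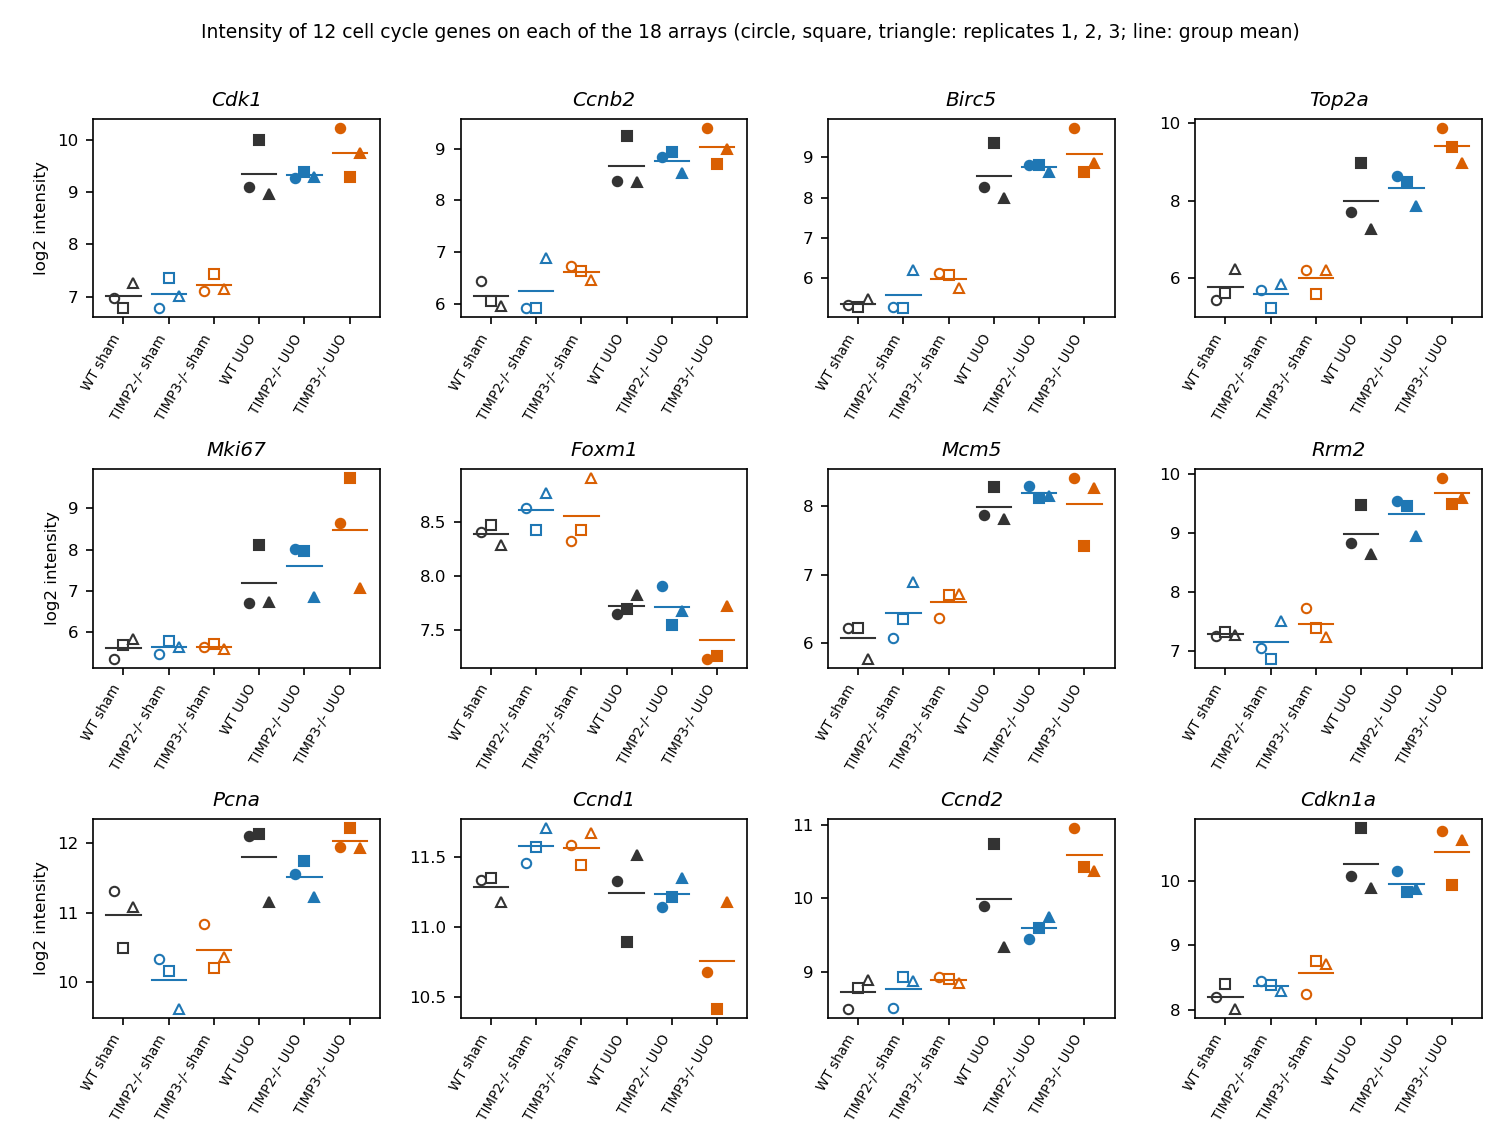
Log2 intensity (y axis, own scale per panel) of 12 members on each of the 18 arrays by group (x axis), with replicates 1, 2 and 3 as circle, square and triangle, sham open and UUO filled, and the group mean as a line. Cdk1, Ccnb2, Birc5, Top2a, Rrm2 and Cdkn1a separate sham from UUO in every genotype, Foxm1 separates them downward, and Mki67 spreads from 135 to 856 intensity units among the TIMP3-/- UUO arrays.

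Foxm1, the transcription factor of mitotic genes, was the only member that fell in all 3 genotypes, with a caveat of probe set. On the brightest it read 339, 354 and 311 on WT sham arrays against 200, 208 and 226 after UUO, 394, 344 and 434 against 240, 188 and 205 in TIMP2-/-, and 320, 343 and 478 against 151, 153 and 211 in TIMP3-/-. The groups did not overlap, and the log2 change was -0.66 ± 0.17 in WT (adjusted p = 0.00712), -0.89 ± 0.17 in TIMP2-/- (0.00123) and -1.14 ± 0.17 in TIMP3-/- (5.27e-05). Of its 3 other probe sets 1 fell in TIMP3-/- (-0.57, adjusted p = 0.00268) and none changed in WT or TIMP2-/-. A probe set annotated to Foxm1 and also to Tex52 and Pebp1, left out by the rule, rose by 1.57, 1.01 and 1.51 (adjusted p = 0.00186, 0.0241 and 0.00110 over all probe sets). The direction of the Foxm1 transcript is therefore not settled by these arrays.

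Other members had several probe sets as well, 23 of the 41. All of a gene's probe sets rose in 8 of these genes in WT, 8 in TIMP2-/- and 9 in TIMP3-/-, with Mcm4, Mcm6, Rrm2, Aurkb, Prc1 and Cdkn1a in each. Probe sets of 1 gene passed in opposite directions for Top2a in every genotype and for Nusap1 in TIMP3-/-. The second Top2a probe set, which read 27.2 to 65.0 on the 18 arrays, changed by -0.66, -0.41 and -0.92. Ccnd2 had 7 probe sets, of which all 7 rose in TIMP3-/-.

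**Figure D4:**
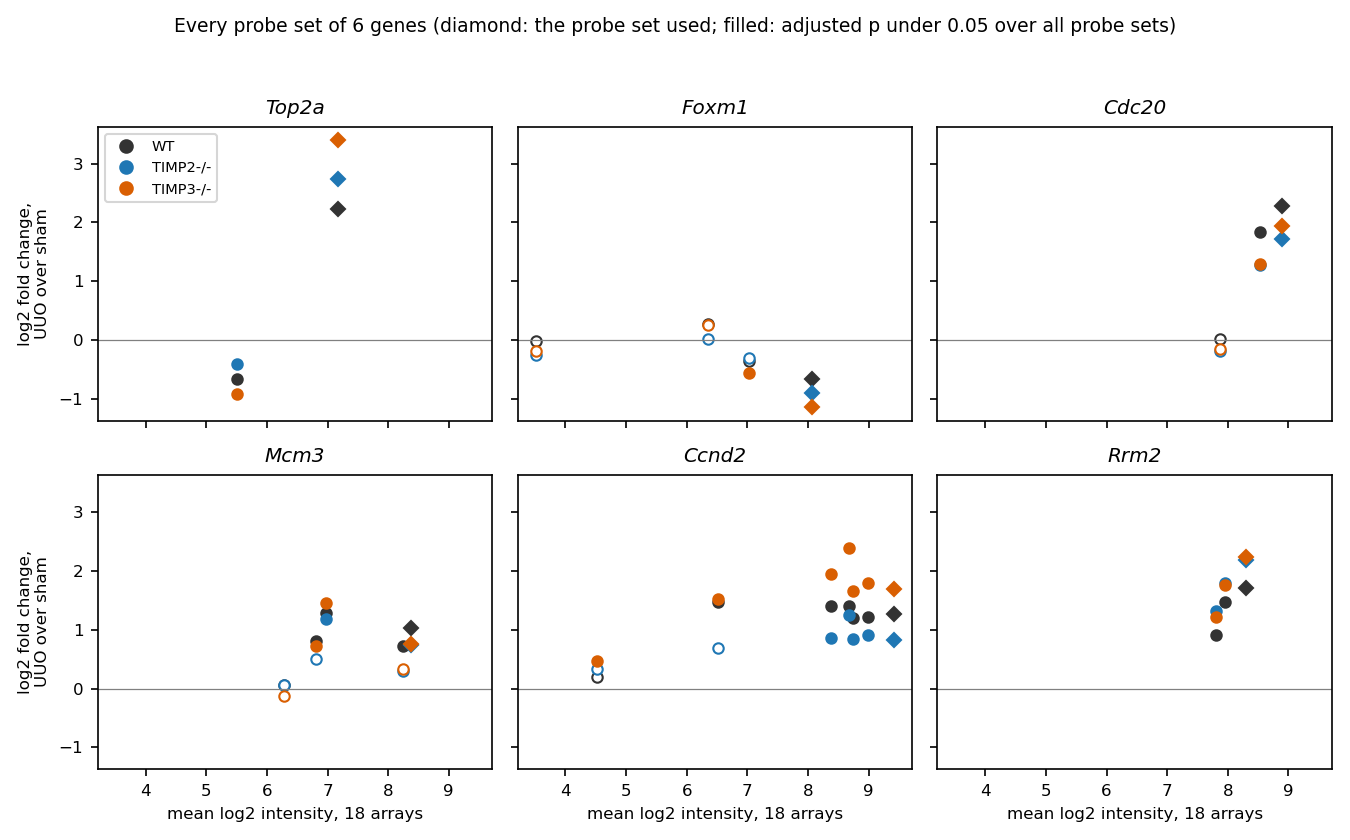
Log2 fold change of UUO over sham (y axis) against the mean log2 intensity over 18 arrays (x axis) for every probe set of 6 members, coloured by genotype, with a diamond for the probe set used and filled symbols where the adjusted p over all probe sets was under 0.05. All 3 Rrm2 probe sets lie above 0 in each genotype, while the dim Top2a probe set lies at -0.41 to -0.92 beside 2.22 to 3.40 for the one used.

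Of the 3 inhibitors 2 rose in WT and all 3 in each null genotype. Cdkn1a, which encodes p21 and halts the cycle through CDK2 and PCNA, read 292, 339 and 259 on WT sham arrays against 1084, 1813 and 953 after UUO. In TIMP2-/- it read 347, 333 and 314 against 1146, 908 and 940, and in TIMP3-/- 303, 434 and 419 against 1763, 982 and 1594. Sham and obstructed arrays were separate in each, and the log2 change was 2.06 ± 0.24 in WT (adjusted p = 1.55e-05), 1.58 ± 0.24 in TIMP2-/- (0.000239) and 1.88 ± 0.24 in TIMP3-/- (1.69e-05). Cdkn2c, p18, rose by 0.52, 0.50 and 0.44. Its call was lost in 1 setting in WT (adjusted p = 0.107) and in 2 settings in TIMP3-/- (0.119 to 0.201). In TIMP2-/- it was lost with median scaling (0.0555), which was also 1 of the TIMP3-/- settings. Cdkn1b, p27, which holds resting cells out of the cycle, rose in TIMP3-/- by 0.75 ± 0.14 (adjusted p = 0.000396) and in TIMP2-/- by 0.37 ± 0.14 (0.0489), and was 0.34 ± 0.14 (0.0732) in WT. The second Cdkn1b probe set, which was dimmer, changed by -0.22, -0.12 and -0.22 in WT, TIMP2-/- and TIMP3-/- and did not pass. With the mean of all probe sets the TIMP3-/- call of Cdkn1b was lost (adjusted p = 0.0855). The TIMP2-/- call of Cdkn1b was lost in 10 settings, among them without TIMP2-/- sham 2, TIMP2-/- UUO 1 or TIMP2-/- UUO 2, and it was 0.22 (adjusted p = 0.245) without TIMP2-/- sham 3.

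The genes around the members, taken from fixed lists, were counted in the same way, and their counts stand against 16.8%, 15.9% and 25.7% of all genes higher and 16.2%, 22% and 38.8% lower. Of 43 further replication genes 17, 19 and 22 rose in WT, TIMP2-/- and TIMP3-/- and 2, 3 and 4 fell. Uhrf1, which copies DNA methylation at the fork, rose by 2.47, 2.15 and 2.30, and Dck, deoxycytidine kinase, by 1.55, 1.84 and 2.49. Lig1, the ligase of lagging strands, rose by 1.60 in WT and also passed as higher in both null genotypes. Cdc7, the kinase that fires origins, fell by 0.56, 0.66 and 0.75, while Dbf4, its activating subunit, rose in TIMP2-/- by 1.18 and in TIMP3-/- by 2.16. Mcm10 and Shmt1 fell in the null genotypes, Shmt1 by 1.62 in TIMP3-/-.

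Of 45 further mitotic genes 22, 21 and 33 rose and none, none and 3 fell, the last being Kif2c, Pttg1 and Zw10 in TIMP3-/-. Cks1b, a CDK subunit, rose by 2.57 in WT and also passed as higher in both null genotypes. Ube2c, the ubiquitin-conjugating enzyme of the anaphase-promoting complex, rose by 2.48 in WT and 2.17 in TIMP2-/-, and Cdca5, sororin of the cohesin complex, by 2.25 and 2.35. Both genes passed as higher in TIMP3-/- too. In TIMP3-/- the largest rises of this list were Cep55, a gene of the last cut of cytokinesis, at 3.25, the condensin gene Smc2 at 2.98 and the anillin gene Anln at 2.96. Cep55, Smc2 and Anln passed as higher in WT and TIMP2-/- as well.

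Of 18 further cyclins, CDKs and CDC25 genes with their regulators 5, 6 and 9 rose and none, 2 and 2 fell. Myc rose by 1.71, 1.80 and 1.47, while Ccnd3, cyclin D3, fell in TIMP2-/- by 0.59 and in TIMP3-/- by 0.69. Of 13 E2F, RB and MuvB genes 2, 3 and 4 rose and none, 1 and 2 fell, with rises near the share of all genes (16.8%, 15.9% and 25.7%). The atypical repressor E2f8 rose by 1.17, 1.07 and 1.32, and Rbl1, p107, by 1.14 in TIMP2-/- and 1.74 in TIMP3-/-, while E2f4 fell by 0.51 and 0.56 in the same genotypes.

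Of 7 further inhibitors 4, 3 and 3 rose and none fell. Cdkn2b, p15, rose by 1.59, 0.77 and 1.78, Btg1 by 1.05, 1.16 and 1.63, and Btg2 by 1.31, 1.12 and 1.40. Of 16 checkpoint and repair genes 3, 3 and 9 rose and none, 1 and 3 fell, and the 3 in WT and in TIMP2-/- are near the 16.8% and 15.9% of all genes that rose. Timeless, which protects the fork, rose by 1.12, 0.98 and 1.43, and Brca1 fell in TIMP2-/- by 0.56 and in TIMP3-/- by 0.78. Of 18 genes of p53 and its targets 7, 7 and 11 rose and none, 2 and 3 fell, with Ddit4 at 1.79, 1.43 and 1.83 and Pmaip1, the gene of the death factor NOXA, at 1.79, 2.24 and 3.79. The lists were chosen with earlier results of these data known, so their counts are a description.

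Genotypes were then compared after obstruction, to ask whether loss of a TIMP changed the level of cycling. TIMP2-/- and WT kidneys gave 0 of 41 members at an adjusted p under 0.05 in limma, against 0.0242% of all genes. The smallest adjusted p was 0.999. An unadjusted p under 0.05 was reached by 2 members, against 3.32% of all genes. The interval of the difference was -0.60 to 0.52 for Cdk1, -0.47 to 1.14 for Top2a and -0.66 to 1.53 for Mki67 (95%, log2), so differences within those ranges remain possible. The 2 were Ccne2 (-0.89 ± 0.37) and E2f1 (-0.36 ± 0.14), the latter lower on every TIMP2-/- UUO array than on any WT UUO array, as were 2 of 41 members and 3.41% of all genes. In the other direction 2 members lay above, and 4.87% of all genes.

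TIMP3-/- against WT after UUO also gave 0 of 41 members in limma, against 0.395% of all genes (0.242% higher and 0.153% lower), with a smallest adjusted p of 0.101. At an unadjusted p under 0.05 there were 15 members, against 20.6% of all genes. Differences were positive in 33 of 41 members where 40.9% of all genes were positive, with a median of 0.29 against -0.07. Between the sham kidneys of the same genotypes they were positive in 33 of 41 as well (67.6% of all genes), with a median of 0.17. The difference of the UUO response, TIMP3-/- minus WT, was positive in 22 of 41 (34.3% of all genes), with a median of 0.04. Top2a was 1.42 ± 0.38 higher in TIMP3-/- (95% interval 0.62 to 2.23, adjusted p = 0.101), Mki67 1.31 ± 0.51 (0.187), Nusap1 1.07 ± 0.38 (0.167), Rrm2 0.69 ± 0.23 (0.143) and Prc1 0.58 ± 0.18 (0.138). Ccnd1 was -0.49 ± 0.18 (0.176). Markers of other cells differed in the same comparison, with macrophage markers positive in 18 of 18 (median 0.41), fibroblast markers in 13 of 13 (0.70) and kidney tubule markers in 0 of 8 (-0.72), though none passed, and their part in the members' differences was not tested. Rrm2, Mcm4 and Mad2l1 were higher on all 3 TIMP3-/- UUO arrays than on any WT UUO array, 3 of 41 members where 7.37% of all genes were so. The gaps were narrow. The lowest TIMP3-/- UUO and highest WT UUO values were 718.2 and 712.8 for Rrm2, 547.1 and 536.2 for Mcm4, and 332.8 and 332.7 for Mad2l1. No member was lower on all 3 TIMP3-/- UUO arrays, against 6.41% of all genes.

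This comparison turned on single arrays. The share of all genes called in each of these settings is not given here, so the counts below describe the members alone. Without WT UUO 2 it called 12 members, 11 higher and 1 lower, with Top2a at 1.92 ± 0.32 (adjusted p = 0.00618), Rrm2 at 0.94 ± 0.22 (0.0186) and Ccnd2 at 0.97 ± 0.21 (0.0127). Without TIMP3-/- UUO 3 it called 7, with Bub1 at 1.57 ± 0.36 (0.0228) and Mki67 at 2.01 ± 0.42 (0.0171). Without each of the other UUO arrays of the pair in turn it called 0. Without the 3 arrays that stand apart it called 11, all higher, with Cdk1 at 0.96 ± 0.20 (0.0338) and Cdkn1a at 0.72 ± 0.18 (0.0456).

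TIMP3-/- against TIMP2-/- after UUO called 1 member, Ccnd2, against 1.98% of all genes higher and 6.09% lower, or 8.08% in either direction. It was 0.99 ± 0.26 higher in TIMP3-/- (adjusted p = 0.0374), and its 3 TIMP3-/- UUO values of 1327 to 1989 lay above the TIMP2-/- UUO values of 698 to 862. Of its 7 probe sets 5 passed, at 0.93 to 1.30. The call was lost, with adjusted p from 0.0736 to 0.143, when any array of the pair other than TIMP3-/- UUO 3 was left out. Without TIMP3-/- UUO 3, 9 members were called, and the share of all genes called then is not given here. Without the 3 arrays that stand apart Ccnd2 was 1.07 (adjusted p = 0.0220). Differences were positive in 31 of 41 members with a median of 0.31, against 39.2% of all genes and -0.11. Of 13 fibroblast markers 6 were called higher and all 13 were positive (median 1.11), 17 of 18 macrophage markers were positive (median 0.50), and 3 of 8 kidney tubule markers were called lower (median -1.06). Their part was not tested. The arrays did not overlap for 8 members higher and 1 lower in TIMP3-/-, against 9.99% and 21.1% of all genes.

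Sham kidneys of the genotypes gave 0 of 41 members in each comparison in limma. All genes gave 0.00807% for TIMP2-/- against WT, 0.0161% for TIMP3-/- against WT and 0.0403% for TIMP3-/- against TIMP2-/-. In the same order 4, 1 and 1 members had an unadjusted p under 0.05, against 27.8%, 10.4% and 3.33% of all genes. Pcna was the member with the largest difference, -0.93 ± 0.28 in TIMP2-/- against WT (adjusted p = 0.131), lower on all 3 arrays. Sham arrays of TIMP2-/- lay above those of WT for 8 members and below for 3, against 29.9% and 14.9% of all genes. Those of TIMP3-/- lay above WT for 11 and below for 2, against 10.1% and 4.25%, and above TIMP2-/- for 0 and below for 1, against 5.87% and 7.09%. The response to obstruction itself, taken as the difference between genotypes of the UUO against sham change, differed for 0 of 41 members in each pair of genotypes. All genes gave 0%, 0% and 0.00807% for TIMP2-/- minus WT, TIMP3-/- minus WT and TIMP3-/- minus TIMP2-/-. In that order 2, 5 and 4 members had an unadjusted p under 0.05, against 9.56%, 26.7% and 10.7% of all genes. For TIMP3-/- minus WT the response differed by 1.09 ± 0.35 for Mcm4, by 1.51 ± 0.54 for Nusap1 and by -0.77 ± 0.26 for Ccnd1 (each adjusted p = 0.163). The 95% interval for Cdk1 reached from -0.61 to 0.98, so differences within that range remain possible.

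The spread between obstructed kidneys of a genotype was itself large and followed single arrays. WT UUO 2, the array with liver transcripts, was the highest of its 3 arrays for 33 of 41 members and 18 of 19 mitosis genes. It was the highest for 32.6% of all genes and for 64.6% of the genes that rose in WT. It lay above the mean of WT UUO 1 and 3 by a median of 0.85 for mitosis genes and 0.44 for replication genes, against -0.07 over all genes, with Top2a, Mki67 and Bub1 at 1.48, 1.39 and 1.38. WT UUO 3 was the lowest of the 9 obstructed arrays for 18 members, or 43.9%, against 9.89% of all genes and 26.3% of the genes that rose in WT.

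TIMP3-/- UUO 1 was the highest of the 9 obstructed arrays for 22 of 41 members, against 13.7% of all genes and 45.2% of genes that rose in WT. TIMP3-/- UUO 2 was the highest of the 9 for 9 members and the lowest for 11, or 22% and 26.8% of the members, against 17.5% and 42.2% of all genes. Against the mean of TIMP3-/- UUO 1 and 3 it was higher for Mki67 by 1.88, Nusap1 by 1.26, Bub1 by 1.23, Ccne2 by 1.15 and Kif11 by 0.63, and differed by -1.14 for Mcm3, -1.12 for Plk1, -0.97 for Tk1 and -0.94 for Cdc45. In all 32 of 41 members were lower there, with a median of -0.43, as were 8580 of the 12393 genes, with a median of -0.20. These arrays were compared as single samples, without a test, and what sets them apart was not tested.

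**Figure D5:**
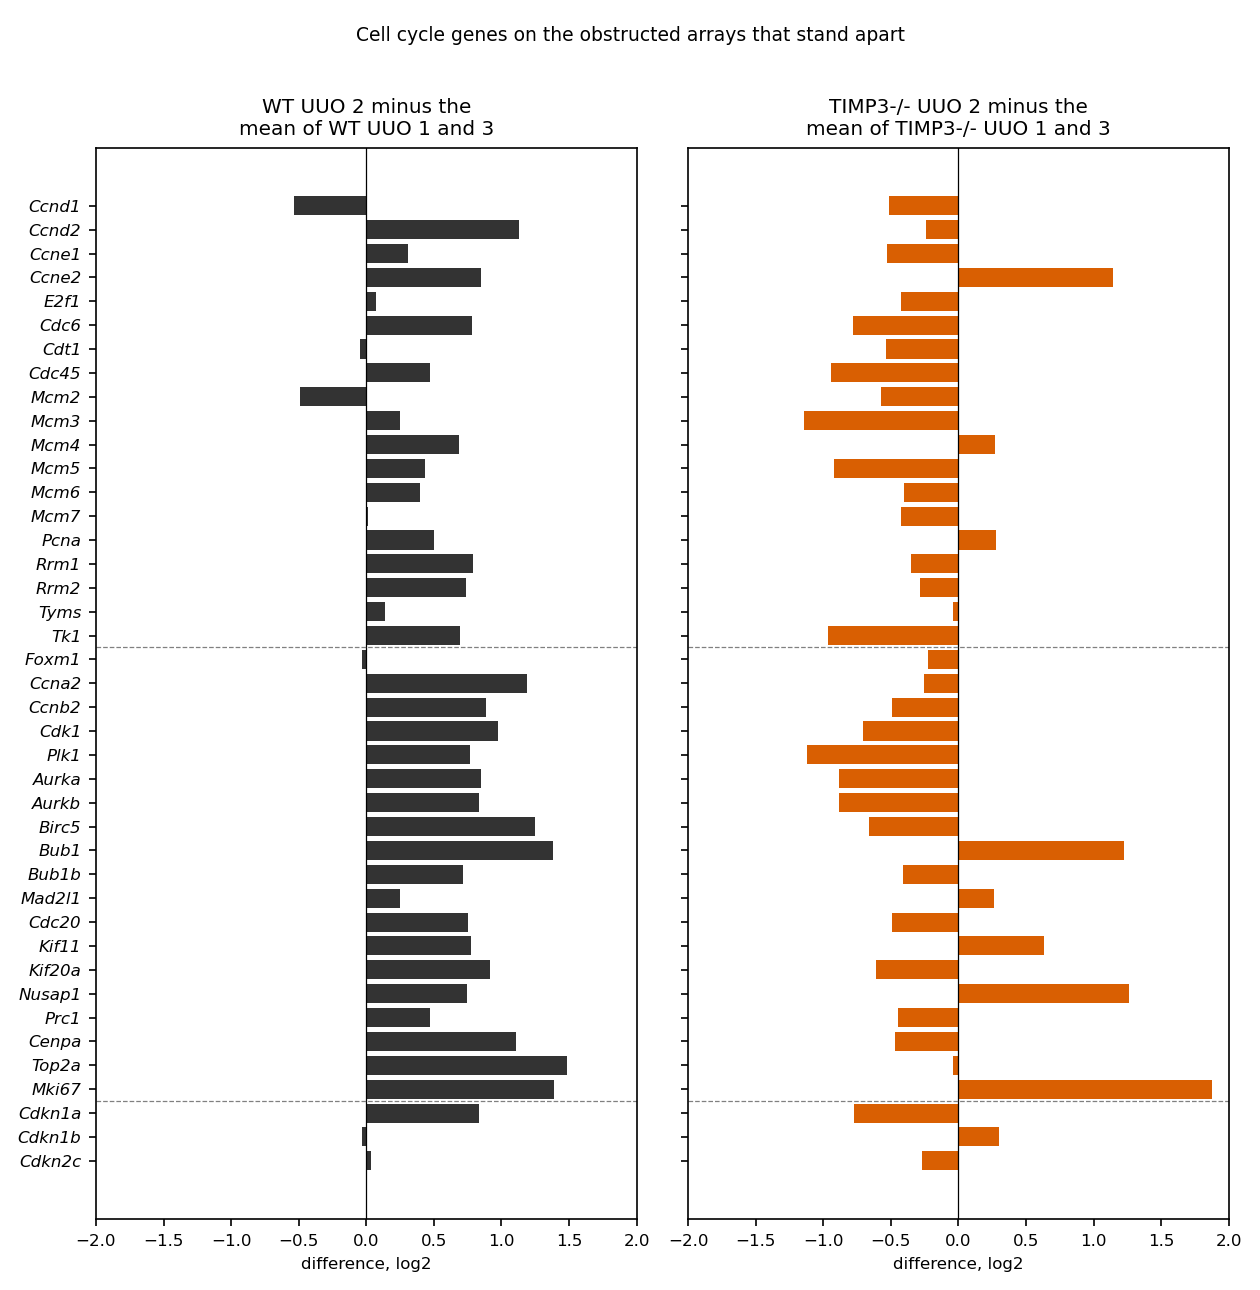
Log2 difference (x axis) of WT UUO 2 from the mean of WT UUO 1 and 3 (left) and of TIMP3-/- UUO 2 from the mean of TIMP3-/- UUO 1 and 3 (right) for the 41 members (y axis), ordered by class with dashed lines between replication, mitosis and inhibitors. On the left 36 bars point up, led by Top2a at 1.48, and on the right 9 point up, led by Mki67 at 1.88, and 32 down.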

How the data were processed

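Total RNA with an integrity number above 7 was labelled with biotin and hybridised to 18 arrays, per the labels. The authors deposited linear intensities per probe set. RMA is credited to the submitters' processing notes, and its version and the step back from log2 are not given in the sources used here. Of 22690 probe sets 64 controls were left out, 20380 carried 1 gene symbol, 691 several and 1555 none. The values were taken as log2 without an offset, and a gene was read from its brightest probe set. Members and lists were chosen with earlier results of these data known. All members are named, and from each other list up to 3 genes with the largest rise and fall per comparison.

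limma 3.58.1 in R 4.3.3 was fitted to 6 group means (12 residual degrees of freedom), with Benjamini-Hochberg adjustment over 12393 genes within each of 12 comparisons and a threshold of 0.05. Tests of single probe sets were adjusted over all probe sets. The fit was tested on simulated data. The number of arrays limits the precision, with a median residual SD of 0.22 (log2), and an exact test of 3 against 3 could not go below 0.1.

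Same-numbered arrays deviated together (correlation above 0.1 in every pair) for UUO against sham in TIMP2-/- (0.33, 0.32 and 0.57) and for TIMP2-/- against WT after UUO (0.21, 0.26 and 0.45). With the replicate as a block those comparisons called 31 and 0 members.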

Additional observations from a re-analysis of the deposited data

How the results depend on the processing

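Obstruction against sham kept its count of called members within 1.5 times under every alternative run (22 to 34 in WT, 23 to 39 in TIMP2-/- and 24 to 38 in TIMP3-/-, the lowest in both null genotypes with dim genes left out, which leaves 26 members), and leaving out 1 array gave 26 to 32, 27 to 31 and 34 to 37. The exception in direction was Top2a with suffixed probe sets left out, which leaves the dim probe set, at -0.66 in WT, -0.41 in TIMP2-/- and -0.92 in TIMP3-/-. Median scaling moved the split of all genes from 2078 higher and 2008 lower to 1678 and 2916 in WT, from 1969 and 2723 to 1532 and 3990 in TIMP2-/-, and from 3187 and 4814 to 2436 and 6256 in TIMP3-/-, with the median of all genes at -0.22, -0.27 and -0.42.

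Comparisons of genotypes depended on the setting, and the cause was not tested. Their counts below are of members alone, without the share of all genes called in the same setting. Array weights were fitted gene by gene because the likelihood fit stopped before converging. For replicates 1, 2 and 3 they were 4.59, 0.34 and 0.53 in WT UUO and 1.40, 0.26 and 0.33 in TIMP3-/- UUO. In TIMP2-/- UUO they were 3.69, 2.19 and 0.36. The weighted comparison of TIMP3-/- and WT after UUO thus rested mostly on replicate 1 of each. With these weights the count of called members was 7 for TIMP2-/- against WT, 27 for TIMP3-/- against WT and 10 for TIMP3-/- against TIMP2-/- after UUO. With the same weights it was 2 for TIMP2-/- against WT and 3 for TIMP3-/- against WT after sham. For the difference of the UUO response it was 3 for TIMP2-/- minus WT, 12 for TIMP3-/- minus WT and 4 for TIMP3-/- minus TIMP2-/-. Without the 3 arrays that stand apart TIMP3-/- against WT after UUO called 11 and TIMP3-/- against TIMP2-/- called 2. Leaving out 1 array gave 0 to 12 for TIMP3-/- against WT, 0 to 9 for TIMP3-/- against TIMP2-/- and 0 to 4 for the response of TIMP3-/- minus WT, with 4 without TIMP3-/- UUO 3.

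TIMP3-/- against TIMP2-/- after UUO called 3 members with a replicate block, 0 with only the arrays compared, and 4 with both, an alternative chosen after seeing the data. For UUO against sham the replicate block called 32 in WT and 35 in TIMP3-/-, where the numbers do not pair the arrays. In TIMP2-/- the block changed the Mcm3 call alone. Dim members (Ccne2, Tyms and Kif11 throughout) are limited by signal near the 25th percentile of the arrays.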
